A study of Homo sapiens with 6 samples.

Results

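The proteasome genes are the protein-coding genes whose name starts with PSMA, PSMB, PSMC, PSMD, PSME, PSMF or PSMG followed by a digit. There were 50 of them among 20176 protein-coding genes of the annotation, and 47 had a promoter peak in at least 1 of 6 ATAC-seq libraries. ATAC-seq marks open chromatin with a transposase that cuts accessible DNA. All libraries were made from MDA-MB-231, a human triple-negative breast cancer line, and 3 came from Parental cells and 3 from SAP30-KO1 cells, which lack SAP30 (a member of the SIN3 corepressor complex) after CRISPR/Cas9 editing with a guide RNA. The KO1 line was a mixture of several selected knockout cells, and the labels name no treatment in either group. The study asked how SAP30 shapes chromatin accessibility and transcription in these cells.

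The 26S proteasome degrades proteins tagged with ubiquitin. Its core is a stack of rings: outer rings of alpha subunits form the gate, and inner rings of beta subunits carry the proteolytic sites. Caps sit on the ends of the core, where ATPase subunits unfold the substrate and non-ATPase subunits bind and remove ubiquitin. Interferon signalling replaces the catalytic beta subunits with immunoproteasome subunits, which favour peptides for MHC class I, and most proteasome genes are considered housekeeping genes whose transcription NFE2L1 raises when proteasome activity is low.

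The value used throughout is the percentile rank, from 0 to 100, of the strongest peak summit within 1 kb of any annotated start site of the gene, among all summits of the same library. A rank of 0 means that no summit was called there. It does not mean closed chromatin, since the threshold of the peak caller and the depth of a library, which the peak lists do not give, both decide what is called. The lists held 29762 to 40650 summits, and 35 to 43 of the 47 proteasome genes had a promoter peak in a given library. The SAP30 promoter itself ranked 84.7, 64.8 and 81.3 in Parental and 71.8, 49.5 and 89.5 in SAP30-KO1, which does not check the knockout because an edit in the coding sequence leaves the promoter in place. Of the markers of the cell line, all 5 mesenchymal genes (VIM, CD44, AXL, CAV1 and MSN) had a promoter peak in some library, and 4 of them in every library. Of 6 luminal and epithelial genes, none had a peak in all 6 libraries and CDH1 had none in any, but EPCAM and GATA3 each had one in 5. PTPRC and ALB, markers of leukocytes and hepatocytes, had none. PECAM1, also chosen as a marker of other cell types, was not matched among the protein-coding genes and was not checked.

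DNA at the promoters on which the results turn is given here, read from GRCh37 (hg19) in the direction of transcription, from 100 bases before to 100 bases after the median summit position of the gene. Where the number of summits was even, the middle summit with the lower genome coordinate was taken as the median. Windows that cross the canonical start end 50 bases after it. Capitals mark matches to the motifs searched, on either strand. The first set holds the highest and lowest genes of the core and the cap by mean rank. The PSMA1 window is at chr11:14541883-14542010 on the minus strand, PSMD14 at chr2:162164888-162164985 on the plus strand and PSMC3 at chr11:47447952-47448152 on the minus strand. PSMB4 had no summit, and its window at chr1:151371949-151372098, plus strand, is placed around the start site of its canonical transcript. The median summit lay 22 bp from the canonical start for PSMA1 and 52 bp for PSMD14, in the first exon of both, and at -62 bp (upstream), outside any annotated protein-coding gene, for PSMC3.
PSMA1: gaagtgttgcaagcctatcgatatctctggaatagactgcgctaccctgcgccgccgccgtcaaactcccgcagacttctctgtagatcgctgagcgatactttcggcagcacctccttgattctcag
PSMB4: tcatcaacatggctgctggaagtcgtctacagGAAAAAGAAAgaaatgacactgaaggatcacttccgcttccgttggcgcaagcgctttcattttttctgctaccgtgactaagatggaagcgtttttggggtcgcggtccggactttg
PSMD14: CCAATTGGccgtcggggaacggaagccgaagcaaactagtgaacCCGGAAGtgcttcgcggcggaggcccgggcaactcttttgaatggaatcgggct
PSMC3: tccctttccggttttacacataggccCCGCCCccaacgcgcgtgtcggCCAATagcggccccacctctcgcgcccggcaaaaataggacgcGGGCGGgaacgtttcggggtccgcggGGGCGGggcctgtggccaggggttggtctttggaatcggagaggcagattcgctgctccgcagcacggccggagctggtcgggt

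The capitals in PSMD14 are an ETS motif (CCGGAAG) and overlapping copies, on opposite strands, of the NF-Y motif (CCAAT), both upstream of the centre. PSMC3 holds 1 NF-Y motif and 3 copies of the SP1 motif (GGGCGG). PSMB4 holds an interferon response element, and no searched motif lies in the PSMA1 window. The second set holds the 4 genes whose Parental and SAP30-KO1 ranks did not overlap. PSMA5 is at chr1:109969063-109969263 on the minus strand, PSMB5 at chr14:23504196-23504396 on the minus strand, PSME4 at chr2:54198241-54198441 on the minus strand and PSMG4 at chr6:3258837-3259037 on the plus strand. Their centres lay at -93 bp from the canonical start for PSMA5 (outside protein-coding genes), -187 for PSMB5 (an intron of its longer transcripts), -211 for PSME4 (an exon of the divergent ACYP2) and -244 for PSMG4 (an intron of its longer transcripts).
PSMA5: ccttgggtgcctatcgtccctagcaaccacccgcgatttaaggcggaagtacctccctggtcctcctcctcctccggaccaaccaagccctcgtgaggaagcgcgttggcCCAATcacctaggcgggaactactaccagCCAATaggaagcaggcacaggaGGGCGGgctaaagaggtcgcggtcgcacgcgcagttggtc
PSMB5: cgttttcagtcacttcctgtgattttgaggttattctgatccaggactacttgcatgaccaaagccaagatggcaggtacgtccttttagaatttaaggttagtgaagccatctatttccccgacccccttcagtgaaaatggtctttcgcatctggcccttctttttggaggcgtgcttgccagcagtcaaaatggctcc
PSME4: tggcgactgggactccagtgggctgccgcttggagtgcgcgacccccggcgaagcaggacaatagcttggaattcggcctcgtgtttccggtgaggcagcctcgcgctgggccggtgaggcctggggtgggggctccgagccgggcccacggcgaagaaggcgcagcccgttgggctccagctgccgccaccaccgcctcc
PSMG4: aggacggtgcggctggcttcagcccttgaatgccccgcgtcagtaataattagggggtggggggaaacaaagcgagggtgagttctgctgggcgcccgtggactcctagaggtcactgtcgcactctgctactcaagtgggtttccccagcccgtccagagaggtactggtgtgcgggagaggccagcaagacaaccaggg

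Of these, the PSMA5 window held 2 NF-Y motifs and an SP1 motif, whereas none of the searched motifs was found in the windows of PSMB5, PSME4 and PSMG4. The third set holds the genes of the immunoproteasome. PSMB8 is at chr6:32812318-32812518 on the minus strand, PSMB9 at chr6:32812448-32812648 on the plus strand and PSMB10 at chr16:67969849-67970049 on the minus strand. Their centres lay at -594 bp from the canonical start for PSMB8 (an exon of longer PSMB8 transcripts), -9421 for PSMB9 (an intron of its longer transcripts) and 804 for PSMB10 (a coding exon).
PSMB8: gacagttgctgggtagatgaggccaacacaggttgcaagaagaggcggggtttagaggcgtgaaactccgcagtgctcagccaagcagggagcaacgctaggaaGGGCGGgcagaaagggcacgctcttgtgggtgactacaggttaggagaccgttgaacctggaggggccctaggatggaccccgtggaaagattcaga
PSMB9: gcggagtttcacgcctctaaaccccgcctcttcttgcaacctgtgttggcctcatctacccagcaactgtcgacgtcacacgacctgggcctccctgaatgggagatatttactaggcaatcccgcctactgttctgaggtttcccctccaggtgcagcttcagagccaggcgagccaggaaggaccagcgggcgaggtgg
PSMB10: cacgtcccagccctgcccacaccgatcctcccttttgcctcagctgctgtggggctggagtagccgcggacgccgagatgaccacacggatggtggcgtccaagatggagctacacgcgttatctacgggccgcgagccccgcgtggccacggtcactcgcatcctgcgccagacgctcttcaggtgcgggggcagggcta

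The PSMB8 and PSMB9 windows overlap on opposite strands, because both genes have start sites in the same stretch of 6p. No STAT motif (TTCCNGGAA) and no interferon response element was found in the immunoproteasome windows. This says only that these letters are not in these bases. The PSMB9 window covers its upstream start, which gave the best summit in 3 of 6 libraries. The bases at its canonical start, near which the best summit lay in the other libraries, were not searched. The PSMB10 window rests on 1 summit.

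First, the presence of promoter peaks was compared with all protein-coding genes. Of the 50 proteasome genes, 27 (54.0%) had a peak at the promoter in every library, whereas this held for 34.5% of all protein-coding genes. Only 3 genes had no peak in any library, PSMB4, PSMA8 and PSMB11, against 37.7% of all genes. Over genes and libraries, 224 of 300 combinations (74.7%) had a peak, 107 of 150 in Parental and 117 of 150 in SAP30-KO1. PSMA8 is the alpha subunit of testis and PSMB11 the beta subunit of thymus epithelium. PSMB4, in contrast, is a structural subunit of every core.

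The ranks themselves were not high. Among the 47 proteasome genes with a peak, the median rank was 42.2 ± 10.8 (SD over 6 libraries, range 29.8 to 55.9). The median of all 12572 genes with a promoter peak was 49.8 ± 7.08 (range 41.8 to 59.6). The means of single genes ran from 97.7 (PSMD10) and 96.7 (PSMD5) to 2.02 (PSMB10) and 1.42 (PSMC3IP), nearly the whole scale. GC content of the 100 bases on each side of the canonical start site had a median of 63.7% over the 50 proteasome genes (range 50.7% to 78.6%) and 66.7% over all protein-coding genes.

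**Figure D1:**
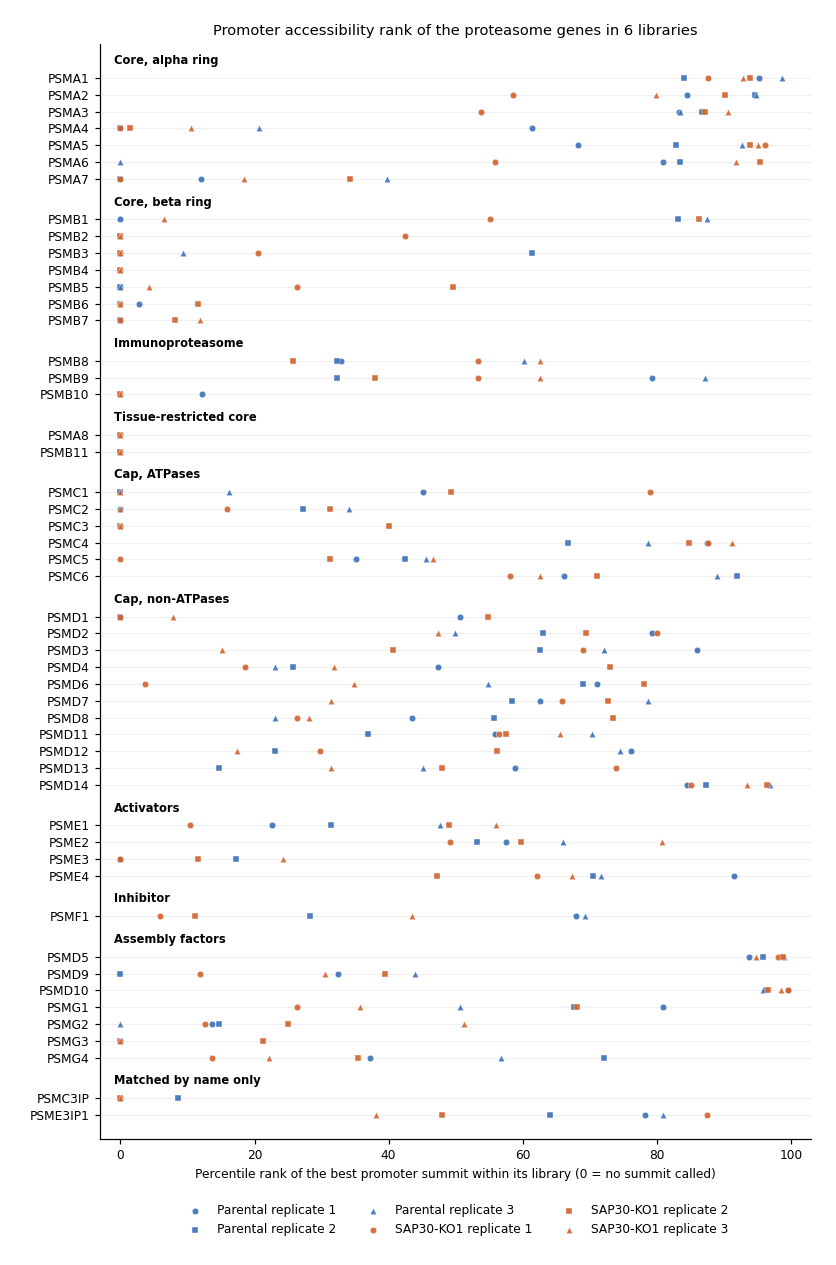
Percentile rank of the best promoter summit (horizontal axis, 0 to 100, with 0 where no summit was called) of each of the 50 proteasome genes, grouped by role. Blue symbols are the 3 Parental libraries and orange symbols the 3 SAP30-KO1 libraries, with a symbol shape for each replicate. PSMA1, PSMD14, PSMD5 and PSMD10 sit at the right in every library, whereas most beta ring genes sit at or near 0.

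Of the contrasts between classes computed here, that between the rings of the core was the largest. The 7 alpha ring genes, PSMA1 to PSMA7, had a median rank of 80.8 ± 12.8 (SD over 6 libraries, range 55.8 to 90.6) and a peak in 37 of 42 combinations of gene and library. The 7 beta ring genes, PSMB1 to PSMB7, had a median rank of 4.78 ± 8.37 (range 0 to 20.5) and a peak in 16 of 42. The difference between the medians was 76.0 ± 20.2 points (SD over 6 libraries, range 35.3 to 90.6), and alpha was above beta in 6 of 6 libraries. This split of the core was chosen after the values were seen, and it is given as a description without a test. Subunits of both rings are made in equal number for each core.

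Within the alpha ring, PSMA1 was highest. Its ranks were 95.3, 84.1 and 98.7 in Parental and 87.6, 93.9 and 92.9 in SAP30-KO1. In Parental replicate 1 and SAP30-KO1 replicate 2 the best summit lay at an alternative start more than 123 kb upstream. With the canonical start alone these libraries still ranked 81.7 and 90.5. PSMA2, PSMA3 and PSMA5 also had a peak in all 6 libraries and means of 83.8, 80.9 and 88.2.

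PSMA6 had no summit in Parental replicate 3 and ranked 81.0 and 83.5 in the other Parental libraries, and 55.8, 95.4 and 91.8 in SAP30-KO1. The lowest alpha gene was PSMA4, with 61.4, 0 and 20.7 in Parental and 0, 1.45 and 10.6 in SAP30-KO1. PSMA7 was also low, at 12.0, 0 and 39.8 in Parental and 0, 34.3 and 18.4 in SAP30-KO1. SAP30-KO1 replicate 1 stood lowest of the 6 libraries for PSMA2 and PSMA3, at 58.5 and 53.8, and for the median of the ring.

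Within the beta ring, PSMB1 stood apart with a mean of 53.1. Its ranks were 0, 83.2 and 87.5 in Parental and 55.1, 86.2 and 6.43 in SAP30-KO1, so both groups held high and low libraries. In 4 of the 5 libraries with a summit it lay 803 to 828 bp upstream of PSMB1, on the side of TBP, the divergent neighbour that encodes the TATA-binding protein. In SAP30-KO1 replicate 3, where the rank was low, the summit lay 154 bp downstream of the start.

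The other 6 beta genes had means under 20. PSMB3, a structural subunit, ranked 0, 61.4 and 9.38 in Parental and 20.5, 0 and 0 in SAP30-KO1. PSMB2, also a structural subunit, had a summit only in SAP30-KO1 replicate 1, at 42.5. PSMB6, the caspase-like subunit, ranked 2.74 in Parental replicate 1 and 11.6 in SAP30-KO1 replicate 2, with no summit elsewhere. PSMB7, the trypsin-like subunit, ranked 8.19 and 11.9 in SAP30-KO1 replicates 2 and 3 and had no summit elsewhere. PSMB4 had none in any library. Each of these 6 genes lacked a summit in libraries of both groups, except PSMB5, which lacked one in Parental alone and is described with the knockout comparison.

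Of the 7 alpha genes, 5 had a mean above that of every beta gene. Alpha genes have more annotated start sites, a median of 13 against 5, and so a wider search window, 6319 against 4002 bp. With the start site of the canonical transcript alone, alpha genes had a median of 80.8 and beta genes of 4.78, with peaks again in 37 and 16 of 42 combinations. Leaving out libraries without a summit gave a difference of 49.6 points. Around the canonical start the median GC content was 61.7% for alpha and 59.2% for beta, and the part of sequence composition in the difference was not tested.

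**Figure D2:**
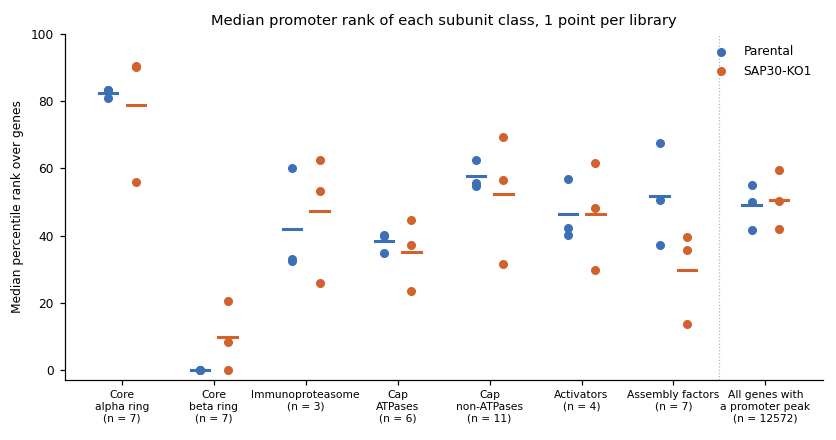
Median percentile rank over the genes of each class (vertical axis), with 1 point for each library, Parental in blue and SAP30-KO1 in orange, and a bar at the mean of 3 libraries. All alpha ring points lie above all beta ring points, and the 3 Parental beta points coincide at 0. The points of all genes with a promoter peak are at the right.

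Next, core, cap and immunoproteasome genes were compared as classes. The 14 core genes had a median of 23.4 ± 14.1 (SD over 6 libraries) and the 17 cap genes 49.4 ± 10.8, a core minus cap difference of -26.0 ± 14.7 points (range -51.4 to -11.8), below 0 in 6 of 6 libraries. It was -39.3 with PSMA8 and PSMB11 counted in the core, and 17.8 when libraries without a summit were left out. Its direction therefore depends on the combinations without a summit. The core median lay between those of its rings, 80.8 for alpha and 4.78 for beta, and describes neither. Core alpha minus cap was 31.3 ± 19.9 points (SD over 6 libraries), above 0 in 5 of 6 libraries. Cap genes had a peak in 89 of 102 combinations and core genes in 53 of 84, and a peak in all 6 libraries was found for 12 of 17 cap and 4 of 14 core genes.

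The cap was not uniform. Its 11 non-ATPase genes, with 10 present in all 6 libraries, had a median of 55.1 ± 12.9, and its 6 ATPase genes, with 2 present in all 6, had a median of 36.7 ± 7.31. The ATPase minus non-ATPase difference was -18.4 ± 6.06 points, below 0 in 6 of 6 libraries. PSMD14, the deubiquitinase that removes the ubiquitin chain, was the highest cap gene, at 84.4, 87.3 and 96.9 in Parental and 85.1, 96.5 and 93.5 in SAP30-KO1. PSMD1, the large scaffold of the cap, was the lowest non-ATPase gene. It had a summit in 3 libraries, at 50.6 in Parental replicate 1 and at 54.8 and 7.88 in SAP30-KO1 replicates 2 and 3, and the Parental summit lay about 105 kb downstream at an internal start.

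PSMC4 was the highest ATPase gene, at 87.5, 66.7 and 78.7 in Parental and 87.6, 84.9 and 91.3 in SAP30-KO1. PSMC6 followed with 66.1, 92.0 and 88.9 in Parental and 58.2, 71.1 and 62.5 in SAP30-KO1, where only Parental replicate 1 fell inside the range of the knockout. PSMC3 was the lowest, with a single summit at 40.0 in SAP30-KO1 replicate 2.

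PSMC1 ranked 45.2, 0 and 16.2 in Parental and 79.0, 49.3 and 0 in SAP30-KO1. PSMC5 ranked 35.1, 42.5 and 45.6 in Parental and 0, 31.3 and 46.7 in SAP30-KO1. PSMC2 ranked 0, 27.2 and 34.1 in Parental and 15.9, 31.3 and 0 in SAP30-KO1. All 3 ATPase genes had libraries without a summit, and their groups overlapped. The summits of PSMC2 lay 2723 to 2986 bp upstream of the canonical start, near other annotated starts. The remaining non-ATPase genes, which include the ubiquitin receptor PSMD4, had means from 36.6 (PSMD4) to 64.8 (PSMD2).

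Immunoproteasome genes were few and uneven. The class median was 44.5 ± 16.0 (range 25.7 to 62.5) and equalled the rank of a single gene, PSMB8, in all 6 libraries. It lay below the alpha ring median (80.8) and above the beta ring median (4.78). Immunoproteasome minus core was 21.0 ± 25.6 points, positive in 5 of 6 libraries. It was -24.6 with libraries without a summit left out, and 5.10 with the canonical start alone. PSMB8 encodes the inducible form of PSMB5, and it ranked 32.8, 32.3 and 60.2 in Parental and 53.3, 25.7 and 62.5 in SAP30-KO1. PSMB9, the inducible form of PSMB6, ranked 79.2, 32.3 and 87.2 in Parental and 53.3, 37.9 and 62.5 in SAP30-KO1. For both genes the groups overlapped.

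These are not separate measurements in each library. PSMB8 and PSMB9 shared their best summit in 3 of 6 libraries, where the PSMB9 value came from a start more than 9 kb upstream of its canonical one. The canonical start of PSMB9 faces TAP1, which encodes the peptide transporter of MHC class I, in a divergent promoter. With canonical starts alone PSMB9 ranked 79.2, 6.77 and 87.2 in Parental and 19.3, 37.9 and 26.4 in SAP30-KO1, identical to the ranks of TAP1. PSMB10, the inducible form of PSMB7, had 1 summit, at rank 12.1 in Parental replicate 1 and 804 bp downstream of its start.

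The activators open the gate of the core without the ATPase cap. PSME1 and PSME2, the interferon-inducible PA28 subunits, both had peaks in all 6 libraries. PSME1 ranked 22.6, 31.4 and 47.7 in Parental and 10.3, 49.1 and 56.0 in SAP30-KO1. PSME2 ranked 57.5, 53.2 and 66.1 in Parental and 49.2, 59.7 and 80.8 in SAP30-KO1, with the groups overlapping for both genes. PSME3, the nuclear PA28 gamma, was the lowest activator. It ranked 17.3 in Parental replicate 2 and 11.6 and 24.2 in SAP30-KO1 replicates 2 and 3, all at summits 8932 to 9266 bp upstream of the canonical start, where BECN1 diverges.

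Of the 7 assembly factors, which build the core and the cap and then leave, PSMD10 and PSMD5 held the highest means of all proteasome genes. PSMD10 (gankyrin) ranked 99.6, 96.3 and 95.9 in Parental and 99.5, 96.7 and 98.5 in SAP30-KO1. PSMD5 ranked 93.8, 95.9 and 98.9 in Parental and 98.1, 98.8 and 94.8 in SAP30-KO1, so both genes were near the top in all libraries. PSMG3 was lowest, with 1 summit, at 21.3 in SAP30-KO1 replicate 2. PSMD9 ranked 32.4, 0 and 44.0 in Parental and 11.9, 39.5 and 30.5 in SAP30-KO1. PSMG2 ranked 13.6, 14.7 and 0 in Parental and 12.6, 24.9 and 51.2 in SAP30-KO1, where its groups overlapped only through SAP30-KO1 replicate 1. The Parental summits of PSMG2 lay more than 44 kb upstream. With the canonical start alone PSMG2 had no summit in Parental and was called higher in SAP30-KO1, as were 6.13% of all genes. It was then compared only because of its SAP30-KO1 summits, so this call is a description.

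PSMF1 (PI31), a regulator first described as an inhibitor of the core, ranked 68.0, 28.2 and 69.3 in Parental and 5.84, 11.2 and 43.6 in SAP30-KO1. SAP30-KO1 replicate 3 lay above Parental replicate 2, so the groups overlapped.

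PSMC3IP and PSME3IP1 match the naming rule but encode proteins named for binding a subunit. PSMC3IP had 1 summit, at 8.54 in Parental replicate 2. PSME3IP1 ranked 78.3, 64.1 and 80.9 in Parental and 87.4, 48.0 and 38.1 in SAP30-KO1. Without these genes the counts called in either direction were the same 2 and 2 given in the next paragraph.

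Next, Parental and SAP30-KO1 were compared. A gene was called when the 3 ranks of one group all lay above the 3 of the other. Of 47 proteasome genes, 2 (4.26%) were lower in SAP30-KO1, PSME4 and PSMG4, whereas 4.57% of all 12572 genes were. Likewise 2 (4.26%) were higher, PSMA5 and PSMB5, whereas 6.01% of all genes were. Neither share exceeded that of all genes, and PSMB5 entered the comparison through SAP30-KO1 alone. With 3 libraries against 3, an exact permutation test cannot go below p = 0.1, and the lowest Benjamini-Hochberg adjusted p over all genes was 0.945. No proteasome gene therefore passed an adjusted threshold. With limma, likewise, no proteasome gene passed after adjustment, the lowest adjusted p being 0.686, and 1 gene, PSMG4, had an unadjusted p under 0.05, as did 850 of all 12572 genes (6.76%).

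The median shift, SAP30-KO1 minus Parental, was 1.03 points over the 47 genes and 0.673 over all genes. Its sign depended on the setting, since the shift of the proteasome genes was -1.39 with lists of equal length, -1.67 with libraries without a summit left out and -0.12 with scores summed over summits. The shift of single genes was positive for 26 and negative for 21 proteasome genes, a share of 55.3% positive against 53.1% of all genes. Single genes shifted by -35.0 (PSMF1) to 26.8 (PSMB5), and the median absolute shift was 9.88 points against 8.55 for all genes. Core beta genes had a peak in 5 of 21 combinations in Parental and 11 of 21 in SAP30-KO1, which was not tested on its own. By library these were 1, 2 and 2 beta genes in Parental and 4, 4 and 3 in SAP30-KO1, PSMB5 adding to SAP30-KO1 alone. Of all genes, 10226, 9333 and 9715 had a promoter peak in the Parental libraries and 9301, 10887 and 9970 in SAP30-KO1. The lists held 36694, 30477 and 33552 summits in Parental and 29762, 40650 and 34262 in SAP30-KO1. For alpha genes the combinations with a peak were 18 and 19 of 21, and for cap genes 44 and 45 of 51.

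**Figure D3:**
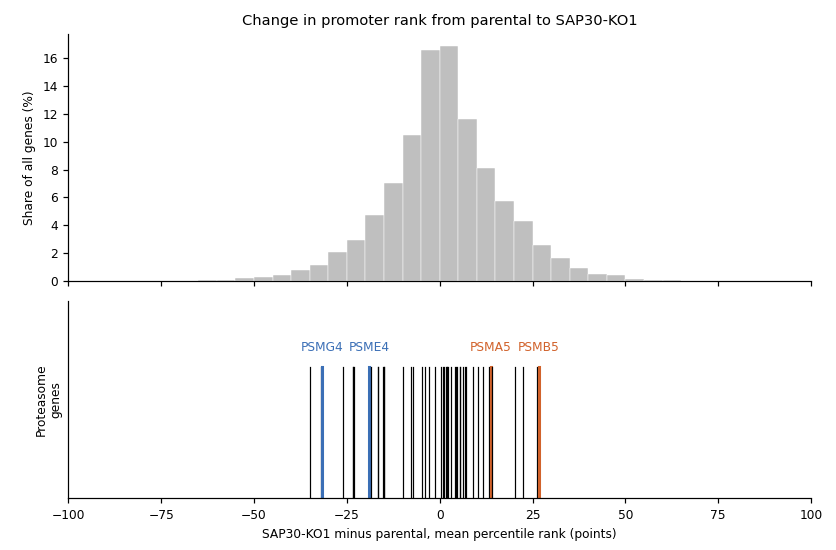
Distribution of the shift in mean percentile rank, SAP30-KO1 minus Parental, over 12572 genes (upper panel, share of genes in bins of 5 points) and for each of 47 proteasome genes (lower panel, 1 line for each gene). Colored lines are the 4 genes whose groups did not overlap, lower in blue and higher in orange. The proteasome genes lie between -35.0 and 26.8, within the spread of all genes.

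PSME4 encodes PA200, a nuclear activator of the core. It ranked 91.6, 70.5 and 71.6 in Parental and 62.1, 47.2 and 67.4 in SAP30-KO1. The Parental mean was 77.9 ± 11.8 and the SAP30-KO1 mean 58.9 ± 10.5 (SD, n = 3; p = 0.1 and adjusted p = 0.945, exact two-sided permutation test). The groups were separated by the gap from 67.4 to 70.5. Its summits lay 161 to 304 bp upstream of the start, in a promoter shared with ACYP2. All settings tried other than limma kept this call.

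PSMG4 encodes a chaperone for assembly of the core. It ranked 37.2, 72.1 and 56.7 in Parental and 13.6, 35.4 and 22.2 in SAP30-KO1, a shift of -31.6 points (p = 0.1 and adjusted p = 0.945, exact two-sided permutation test). The lowest Parental value of 37.2 and the highest SAP30-KO1 value of 35.4 were close. That Parental value came from a summit 27715 bp upstream of the canonical start, at an alternative start. With the canonical start alone Parental replicate 1 had no summit and the call was lost. It was also lost with a stricter q limit (0.0001) and with scores summed over summits.

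PSMA5 was among the highest alpha genes, at 68.3, 82.8 and 92.8 in Parental and 96.1, 94.0 and 95.1 in SAP30-KO1. Its Parental mean was 81.3 ± 12.3 and its SAP30-KO1 mean 95.0 ± 1.07 (SD, n = 3; p = 0.1 and adjusted p = 0.945, exact two-sided permutation test). PSMA5 lies on 1p, where promoters present in all 6 libraries shifted by a median of 4.04 points. Ranked within its chromosome arm, PSMA5 had 94.0 in Parental replicate 3 and 92.1 in SAP30-KO1 replicate 2, and the groups overlapped. The call was also lost when all lists were cut to the same number of summits.

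PSMB5 encodes the chymotrypsin-like subunit, the main target of bortezomib. It had no summit in any Parental library and ranked 26.4, 49.6 and 4.27 in SAP30-KO1, all within 212 bp upstream of the start. PSMB5 was among the genes compared only because of its SAP30-KO1 summits, so its difference is given as a description, with no p. The mean in SAP30-KO1 was 26.8 ± 22.7 (SD, n = 3). The call was lost with a stricter q limit (0.0001) and when each list was cut to its 29762 strongest summits. With libraries without a summit left out PSMB5 could not be called, because no Parental value remained. On 11q, where promoters shifted by a median of -12.5 points, there was no proteasome gene.

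Next, the position of the summits was described. For 35 of 47 proteasome genes (74.5%) the median summit lay within 250 bp of the canonical start, as it did for 65.3% of all genes. For 40 of the 47 the best summits lay within 1 kb of the canonical start in every library with a peak. The other 7 were PSMD1, PSMG4, PSMB9, PSMC2, PSMA1, PSME3 and PSMG2. Among the genes with a peak in all 6 libraries, the summit moved over a range of 305 bp (median of 27 genes) against 324 bp for all genes. Another gene diverged from the same promoter at 13 of 47 proteasome genes (27.7%), against 19.4% of all genes. These include PSMA2 with MRPL32, PSMC5 with FTSJ3, PSMD10 with ATG4A and PSMD13 with SIRT3. At PSMD13 the summits lay 560 to 741 bp upstream in all 6 libraries, on the SIRT3 side, and a peak of a shared promoter cannot be assigned to either gene.

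**Figure D4:**
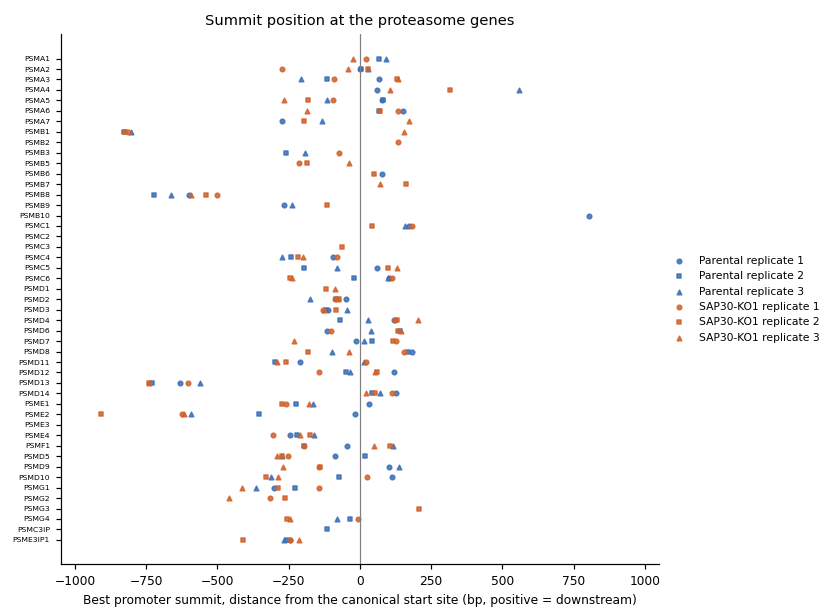
Distance in bp of the best promoter summit from the canonical start site (horizontal axis, positive downstream, 0 at the vertical line) for the 47 proteasome genes, 1 symbol for each library. Summits beyond 1 kb are outside the plot, which leaves PSMC2 and PSME3 without symbols. Most summits lie within 250 bp of the start, and those of PSMB8 and PSMD13 lie more than 500 bp upstream in every library.

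Short motifs were then counted in whole windows, 100 bases to each side of the median summit of the 47 genes, on both strands, and around that of all 12572 genes. The NF-Y motif (CCAAT) was present at 16 proteasome genes (34.0%) against 23.1% of all genes. The ETS motif (CCGGAAG) was present at 11 (23.4%) against 10.9%, and the YY1 motif (GATGGCG) at 7 (14.9%) against 4.69%. The SP1 motif (GGGCGG) was less frequent, at 21 (44.7%) against 55.6%. The differences are descriptions of letters, without a test, and longer or weaker versions of each motif were not searched.

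By class, the NF-Y motif was found at 4 of 7 alpha, 1 of 6 beta and 5 of 17 cap genes. The ETS motif was at 6 of 17 cap genes, 1 of 7 alpha and none of 6 beta genes. The core of the antioxidant response element (TGACNNNGC), which NFE2L1 and NFE2L2 bind, was at 6 genes (12.8%) against 10.3% of all genes. These were PSMA7, PSMB3, PSMB6, PSMD3, PSMD9 and PSMD12. The nuclear respiratory factor site (named NRF1, which is not NFE2L1) was at none of the 47 and 1.18% of all genes. The interferon response element was at 1, PSME2, against 1.63% of all genes, and the STAT motif at none against 0.748%.

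**Figure D5:**
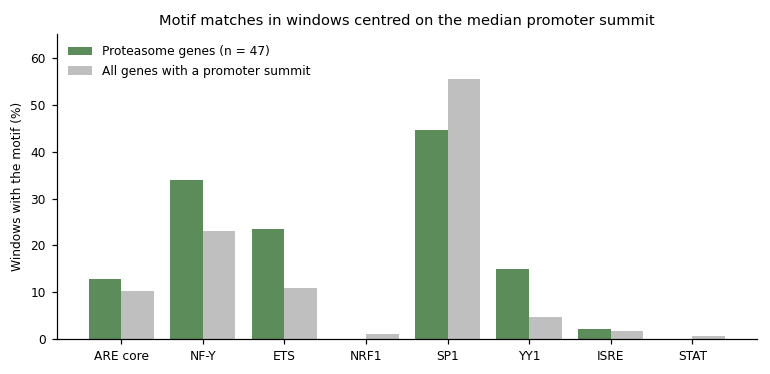
Share of windows of 100 bases to each side of the median summit that hold each motif (vertical axis, percent), for 47 proteasome genes (green) and for all 12572 genes with a promoter summit (gray). ARE core is the core of the antioxidant response element and ISRE the interferon response element. NF-Y, ETS and YY1 motifs are more frequent at the proteasome genes and SP1 motifs less frequent.

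Finally, genes that work with the proteasome were followed. The partner list held 24 genes, which include ubiquitin genes, shuttle factors, deubiquitinases and the regulators NFE2L1, NFE2L2, DDI2 and NGLY1. All had a promoter peak in some library, 15 of 24 (62.5%) had one in all 6, and the median rank was 53.4 (range over libraries 33.1 to 70.0). In this list 2 of 24 genes were lower in SAP30-KO1 without overlap, RPS27A and UBB, beside 4.57% of all genes. Likewise 2 of 24 were higher, UCHL5 and NFE2L1, beside 6.01% of all genes.

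NFE2L1, the factor that drives the rebound of proteasome genes, ranked 72.2, 55.5 and 62.7 in Parental and 81.6, 86.2 and 78.5 in SAP30-KO1. RPS27A, a ubiquitin fusion gene, ranked 53.9, 63.6 and 60.4 in Parental and 34.6, 0 and 0 in SAP30-KO1. UBB, a polyubiquitin gene, ranked 27.4, 49.4 and 16.2 in Parental and 0, 0 and 9.96 in SAP30-KO1. UCHL5, a deubiquitinase of the cap, ranked 96.6 to 98.2 in Parental and 98.5 to 99.2 in SAP30-KO1. Each of these had p = 0.1 and an adjusted p of 0.945 in the exact permutation test.

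Of 12 genes for antigen presentation and its interferon control, 11 had a promoter peak in some library and 8 in all 6, with a median rank of 57.2 (range 39.2 to 73.1). TAPBP had none. TAP2, the partner of TAP1 in the peptide transporter, was the only one called, lower in SAP30-KO1, at 61.6, 80.0 and 74.2 in Parental and 10.2, 53.8 and 37.4 in SAP30-KO1 (p = 0.1 and adjusted p = 0.945, exact two-sided permutation test). IRF1, a factor that carries the interferon signal to the immunoproteasome genes, ranked 84.5 on average and was not called. The 2 lower and 2 higher partner genes and the 1 antigen presentation gene stand beside backgrounds of 4.57% lower and 6.01% higher over all genes.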

How the data were processed

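ATAC-seq was performed on 50000 cells per library. Per the submitters' processing notes and the methods, reads were checked with FastQC 0.11.2, trimmed with Trim Galore 0.4.5, aligned to hg19 with Bowtie2 2.3.3.1, deduplicated with Picard and used for peak calling with MACS2 2.1.0 at a q value of 0.05. The deposited lists hold 1 summit per peak with the score the authors' caller gave, read as the −log10 of the q value because the lowest score lay just above 1.30. They hold no counts, so depth is unknown.

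Summits (the end coordinate) within 1 kb of any start site in GENCODE 44 lifted to GRCh37 were assigned to the gene. Scores were converted to percentile ranks within their list, and the best rank was kept, or 0 without a summit. The 3 ranks of each group were compared with an exact permutation test, two-sided, over 20 assignments, with Benjamini-Hochberg adjustment over 12572 genes. A gene was called when the groups did not overlap. limma 3.58.1 (R 4.3.3) was the alternative. It was tested on simulated data with shifts larger than that of any proteasome gene. That test does not show what limma detects at the shifts seen here. Nothing says that replicates are separate cultures, so p-values measure the spread between libraries, which may be technical. Other alternatives were stricter q values, equal list lengths, other promoter windows and start sites, other ranks and each library left out. The canonical start alone was chosen after seeing the data.

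Sequences were read from GRCh37 with pysam 0.24.0. The members and lists were chosen with earlier results of these data known. Genes named with all values were those called, those of the immunoproteasome, PSME1 and PSME2, the highest and lowest of each class and those lacking a summit in any library. Others are named where their values bear on these, as are the rings of the core, a split chosen after seeing the values. A gene of the antigen presentation list is counted in it but not reported here by name.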

Additional observations from a re-analysis of the deposited data

How the results depend on the processing

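The number lower in SAP30-KO1, 2 in the report, was 1 of 43 with a stricter q limit (0.0001; 3.57% of all genes). It was 1 of 47 with scores summed over summits (4.69%) and 1 of 46 with the canonical start alone (4.39%). With libraries without a summit left out it was 3 of 47 (5.10%). Leaving out each library gave 2 to 8. These were 8 of 46 without Parental replicate 2 (10.8% of all genes) and 6 of 45 without SAP30-KO1 replicate 2 (10.8%). They were 4 of 46 without Parental replicate 1 (7.67%) or SAP30-KO1 replicate 1 (6.50%), and 4 of 47 without SAP30-KO1 replicate 3 (7.18%). In these settings the share of proteasome genes was above that of all genes. Without Parental replicate 3 it was below, 2 of 47 against 8.77%. The shares of all genes rose as well because 2 libraries separate from 3 more often. The number higher, also 2, was 1 of 43 with that stricter limit (7.09% of all genes) and 1 of 47 ranked within the arm (5.89%). With equal list lengths it was 0 of 43 (5.6%), and PSME4 and PSMG4 were then still lower. With the canonical start alone it was 3 of 46 (6.13%), of which PSMB5 and PSMG2 had no summit in Parental. It ranged from 2 to 7 over libraries left out. These were 7 of 46 without SAP30-KO1 replicate 1 (14.4% of all genes) and 4 of 46 without Parental replicate 1 (12.6%).

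With limma 0 genes were called in either direction, 1 at an unadjusted p under 0.05 (6.76% of all genes). Same-numbered libraries did not deviate together across genes (r = -0.0291, -0.0292 and 0.0129), so the numbers were not taken as pairs. With a replicate block 6 genes were lower (9.43% of all genes) and 3 higher (11.8%), and limma with the block called 0 in either direction, 3 at an unadjusted p under 0.05 (6.39% of all genes). The median rank of the proteasome genes was 32.0 with summed scores and 57.9 with libraries without a summit left out. Leaving these out also gave 17.8 for core minus cap, -24.6 for immunoproteasome minus core and 49.6 for alpha minus beta. Over libraries left out, the median shift ran from -4.25 to 1.77 (below 0 without Parental replicate 1, Parental replicate 2 or SAP30-KO1 replicate 2), the genes with a peak in all libraries from 27 to 29, the median rank from 40.7 to 45.9, core minus cap from -28.8 to -20.9, immunoproteasome minus core from 15.0 to 28.5 and alpha minus beta from 73.0 to 84.1. The peak lists give no depth, which limits every absence of a summit.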
